A study of Homo sapiens with 4 samples.

Results

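The regions described here are the H3K4me3 peaks that lie 1 to 2 kb upstream of a transcription start site (TSS) in HCC1428 cells. They were chosen by position alone: every row of the deposited peak table whose centre lay from -2000 to below -1000 bases from the nearest annotated TSS, whatever its annotation, was taken. There were 1083 such peaks among 110018 merged peaks, and 378 of them, next to 372 genes, had been called as a peak in at least 1 of the 4 libraries. Of these 378, 312 had a mean of at least 5 scaled tags per 10 M and were tested, and 66 fell below that level. The other 705 had been called only in the other libraries that went into the merged set.

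H3K4me3 was profiled by CUT&Tag, in which an antibody brings the transposase Tn5 to a histone mark so that DNA beside the mark is cut and sequenced. HCC1428 is an established line of luminal, oestrogen receptor-positive breast adenocarcinoma, and all 4 libraries carry the genotype label WT. Cells received the vehicle DMSO (2 libraries) or 2.5 µM C48, an inhibitor of the KDM5 demethylases (2 libraries), and both groups were collected on day 5. The labels call the libraries biological replicates, but separate cultures are not stated, so a p-value here reflects no more than how far these samples spread, and that spread may be technical.

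H3K4me3 marks nucleosomes around active start sites, above all those in CpG islands, which are stretches of DNA rich in the dinucleotide CG. The mark usually peaks next to the start site and thins out on both sides, and the flanks are often called shoulders. KDM5 enzymes take methyl groups off this lysine, and the study asked where the mark differs when they are inhibited.

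The libraries held 58.4 to 88.4 M aligned tags and 29745 to 37867 of the merged peaks had been called in each. On a log scale the upstream peaks of the pair of DMSO libraries correlated at 0.993, those of the C48 pair at 0.994 and those of libraries from different groups at 0.934 to 0.943, across peaks, which are not independent replicates. Promoter peaks within 1000 bases of the TSS were listed for 6 of 8 luminal markers (summed level 4980 and 5142 scaled tags per 10 M in DMSO, 2791 and 2900 in C48), with peaks at ESR1, FOXA1, KRT8, KRT19, EPCAM and CDH1 and no called peak assigned to GATA3 or KRT18 within that distance. Among markers of other cell types, KRT5, KRT14, TP63, PTPRC, CD3E, PECAM1, CDH5 and COL1A1 had none, DCN and CD14 were weak (means of 2.08 and 30.6), and VIM and ZEB1 were marked (134 and 880). The libraries were scaled by TMM, which centres on the bulk of the peaks, so "higher" and "lower" are relative to that bulk, and a shift common to all peaks would not show.

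The name shoulder describes only part of these regions. A tested peak of the same gene lay nearer to the TSS for 186 of the 312, whereas the other 126 were themselves the tested peak of their gene nearest to the TSS. A start site in the GENCODE annotation, which lists more transcripts than the one used for the peak table, lay inside 71 of the 378, and in 34 of these it was a start of the same gene. They are therefore called upstream peaks below. The annotation of the peak table placed 256 of the 378 between genes, 91 in introns of another transcript, 10 in exons, 10 at transcript ends and 11 in UTRs or non-coding transcripts.

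Tested upstream peaks were 245 to 1569 bases wide with a median of 542, and their mean level ran from 5.30 to 2874 scaled tags per 10 M with a median of 72.7. A median of 521 tags per library stood behind each value, with a lowest of 36.8 and a highest of 19400. Their DNA was less rich in CpG than that at the TSS. In the 300 bases around the peak centre the median ratio of observed to expected CpG was 0.644, against 0.804 in 13211 peaks within 500 bases of the TSS (core peaks) and 0.510 in 1196 peaks 1 to 2 kb downstream. Among the upstream peaks, 41.7% were annotated as a CpG island and 14.1% as a repeat, against 20.4% and 15.6% of the downstream peaks. These shares cannot be set beside those of core peaks, where the annotation gives the label promoter precedence.

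The sequences of 4 upstream peaks show these kinds of DNA. They are taken from the largest rises and falls described further on, 1 rise and 3 falls, read from the hg38 plus strand in the 300 bases around the peak centre, and capitals mark CG dinucleotides. The window near MIR12136 ends 1 base past its peak, and that near CRACR2B was cut to 233 bases to leave out an annotated UTR. The first is a peak that rose, and its window holds 3 CG.
CRACR2B (chr11:826267-826499): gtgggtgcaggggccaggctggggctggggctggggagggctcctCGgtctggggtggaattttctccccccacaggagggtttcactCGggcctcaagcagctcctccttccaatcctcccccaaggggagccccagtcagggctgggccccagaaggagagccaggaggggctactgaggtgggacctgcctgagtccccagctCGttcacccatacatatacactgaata
The next 3 are the peaks that fell; the window near MIR12136 holds 8 CG, and those near FOXO3 and MEX3B hold 38 and 47.
MIR12136 (chr1:633877-634176): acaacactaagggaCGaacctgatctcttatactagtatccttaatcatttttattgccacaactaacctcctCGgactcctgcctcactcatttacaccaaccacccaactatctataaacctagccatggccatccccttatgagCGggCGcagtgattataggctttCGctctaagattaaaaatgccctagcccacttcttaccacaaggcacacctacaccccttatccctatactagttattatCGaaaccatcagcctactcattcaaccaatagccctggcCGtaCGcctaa
FOXO3 (chr6:108558363-108558662): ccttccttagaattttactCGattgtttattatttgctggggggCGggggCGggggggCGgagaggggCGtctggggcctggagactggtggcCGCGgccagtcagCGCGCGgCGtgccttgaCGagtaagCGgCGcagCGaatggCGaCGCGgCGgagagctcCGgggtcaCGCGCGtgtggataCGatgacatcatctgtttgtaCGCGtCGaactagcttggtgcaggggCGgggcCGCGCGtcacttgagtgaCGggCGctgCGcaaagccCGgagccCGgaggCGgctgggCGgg
MEX3B (chr15:82046999-82047298): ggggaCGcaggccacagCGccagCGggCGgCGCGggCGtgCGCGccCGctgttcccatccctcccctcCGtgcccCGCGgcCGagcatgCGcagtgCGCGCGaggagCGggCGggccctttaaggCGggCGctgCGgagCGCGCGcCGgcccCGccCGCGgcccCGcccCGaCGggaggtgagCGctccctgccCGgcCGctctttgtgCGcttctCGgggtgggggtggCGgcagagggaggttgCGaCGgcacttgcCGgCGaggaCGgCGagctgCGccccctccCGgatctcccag

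The first comparison asked whether H3K4me3 at the upstream peaks differed between C48 and DMSO. More of them rose than fell: 142 of 312 were higher in C48, 93 were lower and 77 did not pass the test (limma, Benjamini-Hochberg adjusted p under 0.05). Over all 33772 tested peaks, 32.4% were called higher and 39.2% lower, so the 45.5% of upstream peaks called higher lay above the background and the 29.8% called lower lay below it. Their median log2 fold change was 0.16 (quartiles -0.32 and 0.76), against -0.02 over all tested peaks. The values of both C48 libraries lay above both DMSO libraries at 158 of the 312 and below both at 111. With so few libraries in a group, some peaks separate in this way by chance. The same counts over all tested peaks are not given, so whether the upstream peaks stand out in this respect was not tested.

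The surplus of rises depended on which peaks and which scaling were used. Peaks called only in C48 libraries entered because they were high there: of the 66 of this kind that were tested 51 rose and 5 fell, while of the 22 called only in DMSO libraries 4 rose and 13 fell. Among the 176 called in all 4 libraries, 66 rose and 66 fell (37.5% each). The share over all tested peaks called in all 4 libraries is not given, so whether a surplus remains among these was not tested. When all merged peaks with a mean of at least 5 were fitted, a filter that does not look at the calls, 305 of 594 upstream peaks rose and 128 fell (51.3% and 21.5%), against 36.1% and 34.6% of all 43317 peaks. With values per 10 M tags as deposited, 209 of the 312 rose and 44 fell, on each column's own total 218 and 40, with ribosomal protein promoters held level 270 of 316 and 11, and with DESeq2 size factors 115 of 312 and 108. These scalings moved the median over all tested peaks from -0.02 with TMM to between -0.15 and 0.82. Relative to that median, the upstream peaks stood 0.15 to 0.18 higher under all 5 scalings. A scaling factor moves all peaks of a library nearly alike, so this agreement was largely fixed beforehand.

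The values differed between the sides of the TSS, each taken as a whole. Downstream peaks at the same distance stood further above the bulk, with 728 of 1200 higher, 261 lower and a median log2 fold change of 0.48. Core peaks stood below it, with 1945 of 13235 higher, 9241 lower and a median of -0.49 under TMM scaling. The core median was -0.62 with DESeq2 factors, -0.09 as deposited, -0.03 on column totals and 0.34 with ribosomal protein promoters held level. Normalizing to added fly nuclei, the study described a global rise of H3K4me3 with C48, promoter regions included. The fly counts were not used here, so whether core peaks rose or fell against DMSO cannot be read from these values. Relative to the median of all tested peaks, the downstream median stood 0.50 to 0.51 higher under the 5 scalings and the core median at -0.48 to -0.47. This agreement too was largely fixed beforehand. Within the upstream band the median did not move steadily with distance. In bins of 250 bases, going away from the TSS, it was 0.21 in 106 peaks, 0.13 in 91, 0.11 in 59 and 0.21 in 56. In the next 2 bins towards the TSS it was 0.03 and -0.17, while the 4 downstream bins climbed from 0.38 in the nearest to 0.63 in the farthest. Within annotation classes the sides were closer, apart from repeats. CpG-island peaks had medians of -0.14 upstream and -0.16 downstream, and peaks neither island nor repeat 0.54 and 0.57. Repeat peaks had 0.39 and 0.94. The sides held different shares of these classes, and how far position and class each take part was not tested.

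**Figure D1:**
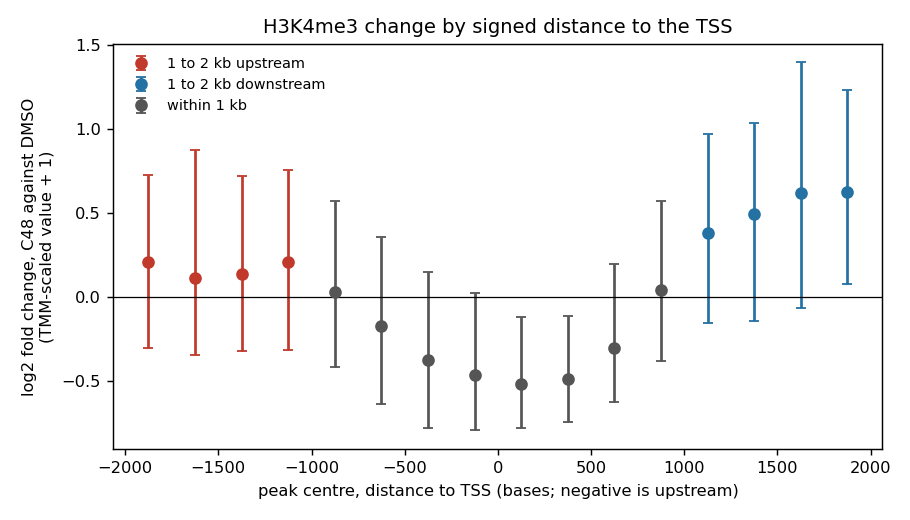
Median log2 fold change of H3K4me3, C48 against DMSO with TMM scaling (y axis), of tested peaks in bins of 250 bases by signed distance of the peak centre to the TSS (x axis, bases), with bars that span the middle quartiles of the peaks. The 4 upstream bins beyond 1000 bases have medians of 0.11 to 0.21 and the 4 downstream bins 0.38 to 0.63, and the medians are lowest, at -0.52, just downstream of the TSS. Another scaling shifts all points together.

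Values of some peaks just inside and just outside the limits of the distance rule are given as a description. Just inside -1000, the peak near TRERF1, a zinc finger transcriptional regulator, had 400 and 416 scaled tags per 10 M in DMSO and 282 and 281 in C48, and the one near DAPP1 had 8.38, 6.54, 6.99 and 8.77. Just outside, the peak near ZNF860 went from 417 and 412 to 234 and 235, and that near LIN28B-AS1 held 112 and 111 in DMSO and 68.4 and 72.5 in C48. At the far limit, the peak near HIVEP2 inside the band had 267 and 228 in DMSO and 145 and 162 in C48, and beyond it that near NR4A2 had 340 and 362 in DMSO and 211 and 197 in C48 and that near OR4C46 had 6.80 and 5.12 in DMSO and 9.37 and 10.9 in C48.

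Strength of the peak moved with the change at upstream peaks as over the whole table. Upstream peaks with a mean of 20 to 50 scaled tags per 10 M had a median log2 fold change of 0.86. Of these, 32 of 44 were higher (72.7%), against 53.1% of all tested peaks of that strength. Upstream peaks of 500 or more had a median of -0.30. Of these, 15 of 21 were lower (71.4%), a smaller share than the 94.5% of all tested peaks of that strength. At equal strength the upstream medians lay above those of core peaks in every one of the 7 bins. From 200 to 500 the median was -0.21 upstream, -0.15 downstream, -0.60 at core peaks and -0.55 over all tested peaks. From 50 to 100 it was 0.15 upstream and 0.64 downstream. Downstream medians lay above upstream medians in all bins but that of 500 or more, where they were -0.42 and -0.30. These are medians over peaks and no test of the differences between positions was run.

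**Figure D2:**
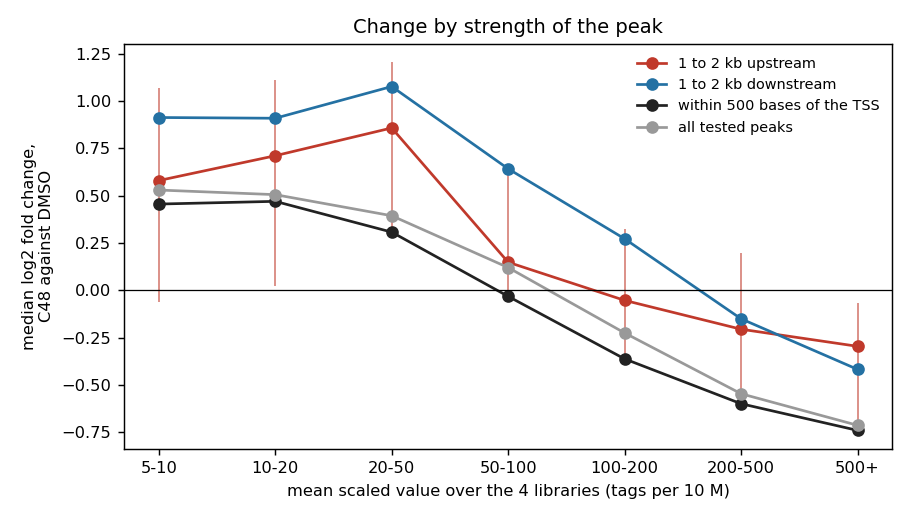
Median log2 fold change, C48 against DMSO with TMM scaling (y axis), by peak strength (x axis, mean of the 4 libraries in scaled tags per 10 M) for upstream, downstream, core and all tested peaks; thin bars give the quartiles of the upstream peaks. The upstream line runs from 0.58 at 5 to 10 through 0.86 at 20 to 50 to -0.30 at 500 or more.

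CpG content split the upstream peaks, as it did all tested peaks. With an observed to expected CpG ratio under 0.6, 62% of upstream peaks rose and 15.3% fell, against 50.4% and 15.1% of all tested peaks. At 0.6 or above 32.6% rose and 41.1% fell upstream, against 18.5% and 58% of all. Of 130 tested upstream peaks annotated as a CpG island, 38 rose and 62 fell (median -0.14), while of the 182 others 104 rose and 31 fell (median 0.51). Downstream CpG-island peaks were much alike, with 31.4% higher and 51.8% lower, against 29.2% and 47.7% upstream. The direction of the upstream CpG-island median turned with the scaling. It was -0.27 with DESeq2 factors, 0.26 on the deposited scale and 0.69 when ribosomal protein promoters were held level. It lay below that of the other upstream peaks under all 5, an order that a factor common to a library leaves nearly unchanged. Strength moved with CpG content too: CpG-island peaks had a median level of 191 scaled tags per 10 M, and peaks that were neither an island nor a repeat one of 34.7. Within upstream peaks of 200 or more, those with a ratio under 0.6 had a median of 0.28 (13 of 20 higher, 6 lower). Those at 0.6 or above had one of -0.34 (12 of 66 higher, 45 lower). Of all tested peaks of 200 or more, 21.5% rose and 64.9% fell in the first class and 4.64% and 89.3% in the second. Within upstream peaks under 50 the medians were 0.77 (53 of 85 higher, 9 lower) and 0.42 (25 of 48 higher, 6 lower). Of all tested peaks under 50, 52.8% rose and 8.46% fell in the first class and 37.9% and 11.2% in the second. Core peaks of 200 or more had medians of -0.43 and -0.67 for the same 2 classes. How far strength and CpG content each take part in the change was not tested.

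Repeats were a smaller class. Of 44 tested upstream peaks annotated as a repeat, 21 rose and 9 fell (median 0.39), among them 18 SINE peaks (8 and 3), 8 LINE peaks (5 and 2), 9 LTR peaks (3 and 2) and 5 DNA transposon peaks (4 and 0). Of 187 downstream repeat peaks 79.7% rose and 8 fell, with a median of 0.94. Reads from near-identical copies of a repeat can be placed at the wrong copy, which makes these values less certain.

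Motifs were counted in the same 300-base windows, on both strands, as a description of the DNA; none of the motifs contains another. GGGCGG, the GC box, was found in 51.9% of upstream windows, 35.2% of downstream windows, 67.3% of core windows and 45.4% of all 33675 tested windows. Among upstream peaks it was in 74.2% of those that fell and 35.2% of those that rose. CCGGAAG was found in 5.45% upstream, 10.1% at core peaks and 6.52% of all, and AGGTCA in 14.7%, 10.1% and 15.6%. TGACTCA (4.81% upstream, 3.99% of all), TGTTTAC (4.17% and 4.27%) and CACGTG (4.81% and 5.95%) were near the share of all windows.

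Among peaks with a mean of at least 20 scaled tags per 10 M, the 6 largest rises came at peaks that were not annotated as a CpG island. All 6 had been called in C48 libraries only, so they entered the test through the group in which they were high and a difference was built into their choice. The peak near TTC25, which encodes a docking protein of the outer dynein arms of cilia, lies in an AluJb element on chromosome 17, 1367 bases upstream. It had 1.05 and 1.41 scaled tags per 10 M in DMSO and 45.1 and 41.9 in C48, from 8 and 8 tags against 303 and 349. Its log2 fold change was 4.32 (SE 0.27, limma adjusted p = 6.05e-19), a size that rests on the few DMSO tags and on the constant added before the logarithm, being 3.18 with a constant of 4 and 4.67 with one of 0.5.

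The next rises were smaller. Near RBM12B-AS1, an antisense RNA gene (chromosome 8, 93738558 to 93738815), an intronic peak in another AluJb had 34.2 and 40.2 in DMSO and 207 and 214 in C48 (log2 fold change 2.48, SE 0.10). Near SEC22C, a gene of the vesicle transport family SEC22, an intronic peak in the DNA transposon Tigger3a (chromosome 3) had 15.4 and 19.4 in DMSO and 75.7 and 69.8 in C48 (2.01, SE 0.15). At both of these peaks the C48 libraries lay far above the DMSO libraries.

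At 2 of the remaining 3 rises an annotated start lay inside the peak. Near CRACR2B, a regulator of store-operated calcium channels, the peak on chromosome 11 (826014 to 826684) held a GENCODE start of the gene itself and had 15.2 and 10.6 in DMSO and 48.5 and 53.4 in C48 (1.92, SE 0.18). Near LRRC75B the peak on chromosome 22 (24594415 to 24595126) held a start of GGT1, a gamma-glutamyltransferase gene, on the opposite strand and had 20.4 and 18.9 in DMSO and 62.0 and 64.0 in C48 (1.63, SE 0.15). The intronic peak near STAU1, which encodes a double-stranded RNA-binding protein (chromosome 20, 49220410 to 49220683), held no start and had 14.5 and 10.2 in DMSO and 44.6 and 42.8 in C48 (1.76, SE 0.18). All 3 passed the test with no overlap between the groups, but both were conditions of the choice of these peaks.

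The largest fall was at a peak whose sequence is nearly that of mitochondrial DNA. The peak near MIR12136, a microRNA gene (chromosome 1, 633877 to 634175, intergenic), had 4723 and 4963 scaled tags per 10 M in DMSO and 1044 and 767 in C48 (log2 fold change -2.43, SE 0.06), and it was also the strongest upstream peak. Its 299 bases align to the mitochondrial genome at 99.0% identity. On the deposited scale it stood in C48 at 24.7% of its DMSO mean, and the 2 mitochondrial peaks of the table stood at 25.2% and 27.6%; the part of mitochondrial tags in its value was not tested. Without it and without 2 peaks off the primary chromosomes, 141 of 309 upstream peaks rose and 91 fell.

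The other leading falls among peaks with a mean of at least 20 were CpG-island peaks. The peak upstream of FOXO3, a forkhead factor of stress response and cell death (chromosome 6, 108558385 to 108558640), had 151 and 171 scaled tags per 10 M in DMSO and 54.6 and 56.2 in C48 (log2 fold change -1.52, SE 0.10). That of MEX3B, an RNA-binding protein gene (chromosome 15, 82046567 to 82047730), had 491 and 493 in DMSO and 196 and 209 in C48 (-1.28, SE 0.06). WNT7B, a Wnt ligand gene (chromosome 22, 45978833 to 45979140), had 94.4 and 80.9 in DMSO and 37.8 and 38.9 in C48 (-1.17, SE 0.12). All 3 had been called in DMSO libraries only, so they entered the test through the group in which they were high. That the groups did not overlap was a condition of their choice. The direction was kept under the 5 scalings.

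The last 2 falls of the list were of like size. MAMSTR, a coactivator gene of MEF2 factors (chromosome 19, 48720797 to 48721226), had 67.7 and 66.7 in DMSO and 31.7 and 28.3 in C48 (-1.14, SE 0.13). SP4, a gene for a GC-box-binding zinc finger factor (chromosome 7, 21426619 to 21427455), had 334 and 311 in DMSO and 142 and 153 in C48 (-1.12, SE 0.07). Its core peak fell likewise (log2 fold change -1.27), so that the upstream peak stood at 54.0% and 50.5% of the core in DMSO and 55.0% and 61.1% in C48 (adjusted p of the ratio = 0.30, limma).

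**Figure D3:**
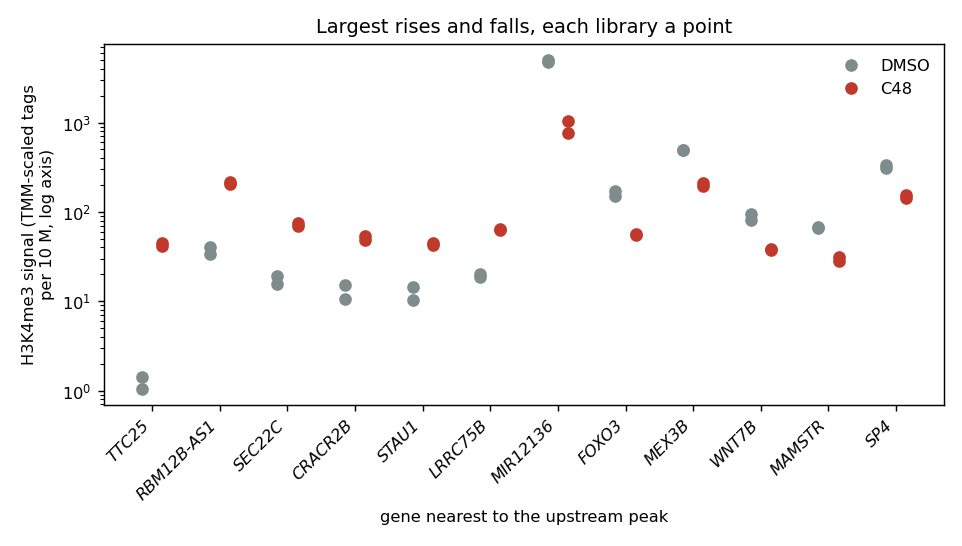
H3K4me3 signal in each library (y axis, tags per 10 M after TMM scaling, drawn on a log axis) at the 6 upstream peaks that rose most and the 6 that fell most among those with a mean of at least 20 (x axis, nearest gene). Each point is a library. That DMSO and C48 points do not overlap was a condition of the choice of the 12 peaks. Values run from TTC25 (1.05 and 1.41 against 45.1 and 41.9) to MIR12136 (4723 and 4963 against 1044 and 767).

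The strongest upstream peaks changed little beside these. After MIR12136 came the peak near PSD, an exchange factor gene for the GTPase ARF6 (chromosome 10, 102420790 to 102422214), which holds starts of both PSD and FBXL15. It had 1610 and 1556 scaled tags per 10 M in DMSO and 1129 and 1137 in C48 (log2 fold change -0.48, SE 0.03), lower with TMM, but 0.36 and called higher on ribosomal protein promoters. The peak near the pseudogene ARHGAP27P2 (chromosome 17, 68196621 to 68197700) had 898 and 903 in DMSO and 1091 and 1131 in C48 (0.30, SE 0.04). The peak near MIR129-2, a microRNA gene (chromosome 11, 43579257 to 43580011), had 995 and 957 in DMSO and 938 and 886 in C48, a difference of -0.10 (SE 0.04) whose call was lost without DMSO replicate 1 (-0.07) and whose direction turned on the deposited scale (0.30).

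The second comparison set each upstream peak against the tested peak of the same gene name and chromosome that was nearest to a TSS, called its core peak, which takes out the scaling of the libraries apart from the constant added before the logarithm. In DMSO the upstream peak held a median of 53.4% of the signal of its core peak over 186 pairs, and in C48 63.3%. Per kb of peak width the medians were 70.2% and 83.1%. The ratio rose in 66 pairs, fell in 34 and did not pass the test in 86 (limma on the log2 ratio), with a median change of 0.28 on the log2 scale. Over all 9969 pairs of a peak with the core peak of its gene, 42.8% rose and 13.5% fell, so the upstream share of rises, 35.5%, was below the background and the share of falls, 18.3%, above it.

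A gene with several starts can have its core peak at another start than the one the upstream peak was measured from. The spacing of the peaks matched their distances to 1 start, within 10 bases, in 155 of the 186 pairs, of which 56 ratios rose and 26 fell (median 0.30), and in the other 31 pairs 10 rose and 8 fell (median 0.23). Over all pairs at the same start 44.5% rose and 12.2% fell.

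Downstream pairs gave other values. Of 933 pairs with a peak 1 to 2 kb downstream, 678 ratios rose and 34 fell, with a median change of 0.90, and the median share of the core signal went from 31.6% to 60.0%. Several downstream peaks of a gene can share a core peak. With all merged peaks entered, 248 of 475 upstream ratios rose and 63 fell (median 0.53), against 50.9% and 12.0% of all 18266 pairs. Fewer upstream ratios fell when a C48 library was left out, 16 without replicate 1 and 17 without replicate 2.

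The 2 peaks of a pair moved in opposite directions in 21.5% of upstream pairs, near the 20.6% of all pairs. In 28 pairs the upstream peak rose while the core peak fell, and in 12 the upstream peak fell while the core rose. Both rose in 43 pairs and both fell in 41. The core peaks of these genes were themselves near the bulk, with a median log2 fold change of 0.05, whereas the core peaks of downstream pairs had one of -0.55.

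CpG islands and start sites inside the peak divided the ratios as they did the levels. Of 80 pairs whose upstream peak was a CpG island, 17 ratios rose and 17 fell (median change 0.02), and of the 106 others 49 rose and 17 fell (median 0.44). The CpG-island peaks stood at a median of 82.9% of the core in DMSO and the others at 38.0%. Of 38 pairs with a GENCODE start inside the upstream peak, 8 ratios rose and 11 fell (median -0.19), and of 148 without one 58 rose and 23 fell (0.35). In 53 pairs the upstream peak was stronger than the core peak in DMSO, and in C48 in 59.

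**Figure D4:**
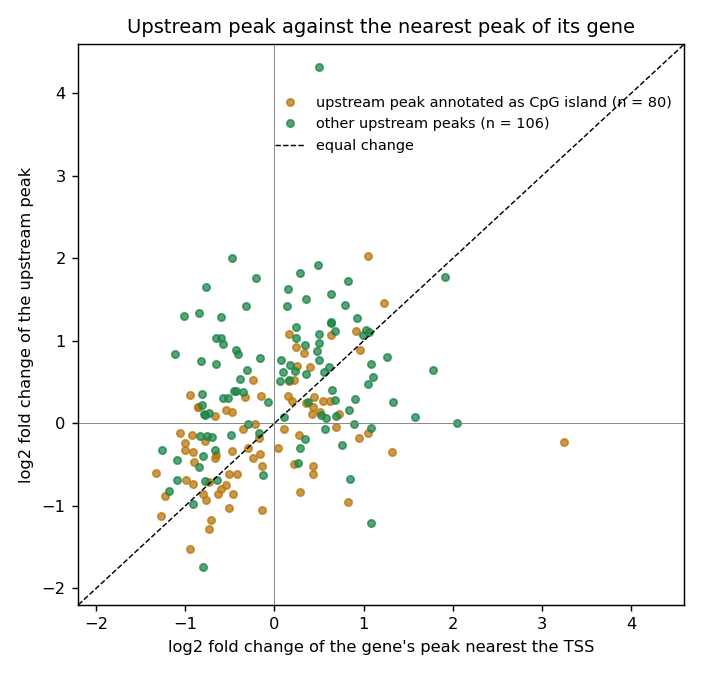
Log2 fold change of each upstream peak (y axis) against that of the peak of the same gene nearest to the TSS (x axis), C48 against DMSO with TMM scaling, for 186 pairs; points above the dashed line are ratios that went up. Of the 80 CpG-island peaks 41 lie above the line, and of the 106 others 75; another scaling shifts both axes together.

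Among pairs with a core mean of at least 50 and an upstream mean of at least 10, 6 rises of the ratio were largest. At each of the 6 the upstream peak rose, and the core fell with TMM scaling at all but TTC25, whose core rose. All 6 upstream peaks had been called in C48 libraries only. They entered through the group in which they were high, so a difference was built into their choice. The upstream peak of LOC100129917 (chromosome 4, 782948 to 783516) had 44.5 and 42.6 scaled tags per 10 M in DMSO and 107 and 111 in C48, while the core peak had 432 and 444 in DMSO and 214 and 217 in C48. Its share of the core went from 10.3% and 9.59% to 49.8% and 51.1% (log2 change of the ratio 2.32, SE 0.12, limma adjusted p = 0.00175). For TTC25 the share went from 0.917% and 1.45% to 29.5% and 28.5% (3.82, SE 0.20), and for SEC22C, whose core peak lies 20.3 kb away at another start, from 3.70% and 4.83% to 25.5% and 23.9% (2.49, SE 0.18).

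PURG, a gene for a purine-rich element-binding protein, and SPATA1, named for its link to spermatogenesis, followed. The PURG peak in an LTR56 element (chromosome 8, 31034571 to 31034912) stood at 4.72% and 5.53% of its core in DMSO and 21.9% and 27.4% in C48 (2.18, SE 0.17). The SPATA1 peak (chromosome 1, 84504783 to 84505073) stood at 5.35% and 6.59% and then at 22.2% and 24.8% (1.97, SE 0.17), its core having dropped from 867 and 865 to 402 and 393 scaled tags per 10 M. STAU1 also went up, from 8.60% and 6.74% to 31.2% and 32.0% (1.97, SE 0.16). That no C48 share at these 3 genes overlapped a DMSO share was a condition of their choice.

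The 4 largest falls of the ratio, under the same limits on the means, came mostly where the upstream peak was the stronger one. The peak upstream of TIGD2, a transposase-derived gene (chromosome 4, 89111189 to 89111950), holds starts of TIGD2 and FAM13A and had 559 and 596 scaled tags per 10 M in DMSO and 287 and 309 in C48, while the peak nearer to the annotated TSS had 62.3 and 67.3 in DMSO and 106 and 126 in C48 (log2 change of the ratio -1.78, SE 0.12). For EML6, a gene of the EMAP family of microtubule-binding proteins, the upstream peak (chromosome 2, 54722997 to 54724008) held a GENCODE start of the gene and had 713 and 703 in DMSO and 391 and 401 in C48, against a mean of 50.7 over the 4 libraries nearer to the annotated TSS (-1.13, SE 0.19). The upstream peak of the long non-coding RNA gene LINC00461 (chromosome 5, 88674286 to 88675259) stood at 452% and 424% of the core peak, which lies 16.2 kb away at another start, in DMSO and 216% and 183% in C48 (-1.13, SE 0.13).

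ANXA9, an annexin gene, was the exception. Its upstream peak (chromosome 1, 150980967 to 150981602) held 25.3 and 28.1 scaled tags per 10 M in DMSO and 23.3 and 30.5 in C48, so that the groups overlapped, while the core went from 24.5 and 35.7 to 132 and 119. The ratio fell by 2.04 on the log2 scale (SE 0.23, limma adjusted p = 0.00338).

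The third comparison asked within genes whether the 2 sides moved alike. Only 13 genes had tested peaks 1 to 2 kb away on both sides. The ratio of upstream to downstream signal rose in 4 (BCL2, FGF14, LINC01410 and LOC107984507), fell in 5 (AHNAK2, APOLD1, PHF21A, TRERF1 and WNT7B) and did not pass the test in 4, with a median change of -0.10 on the log2 scale. The median turned to 0.15 without DMSO replicate 2, to 0.03 without C48 replicate 1 and to 0.02 without DMSO replicate 1, and the number of rises dropped to 1 without C48 replicate 1 and to 2 without DMSO replicate 2. At 7 of the 13 all peaks of the comparison fitted the same start, with 3 rises, 2 falls and 2 that did not pass, and at the other 6, PHF21A, TRERF1 and FGF14 among them, they were measured from different starts.

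PHF21A, which encodes a reader of unmethylated H3K4, had 580 and 572 scaled tags per 10 M upstream in DMSO and 324 and 330 in C48, while the downstream signal went from 248 and 240 to 260 and 283 (log2 change of the ratio -0.97, SE 0.12, limma adjusted p = 8.63e-04). TRERF1 crossed over: the upstream signal was 202% and 224% of the downstream signal in DMSO and 92.8% and 95.4% in C48 (-1.17, SE 0.14). At BCL2, the apoptosis inhibitor, the upstream peak held 114 and 129 in DMSO and 123 and 135 in C48, while the downstream signal went from 365 and 339 to 211 and 216 (0.81, SE 0.21). FGF14, a gene of the fibroblast growth factor homologous family, had peaks up to 482 kb apart at different starts, its upstream signal going from 7.72 and 8.65 to 20.1 and 19.5 with 91.2 and 98.2 downstream in DMSO and 103 and 107 in C48 (1.03, SE 0.15).

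**Figure D5:**
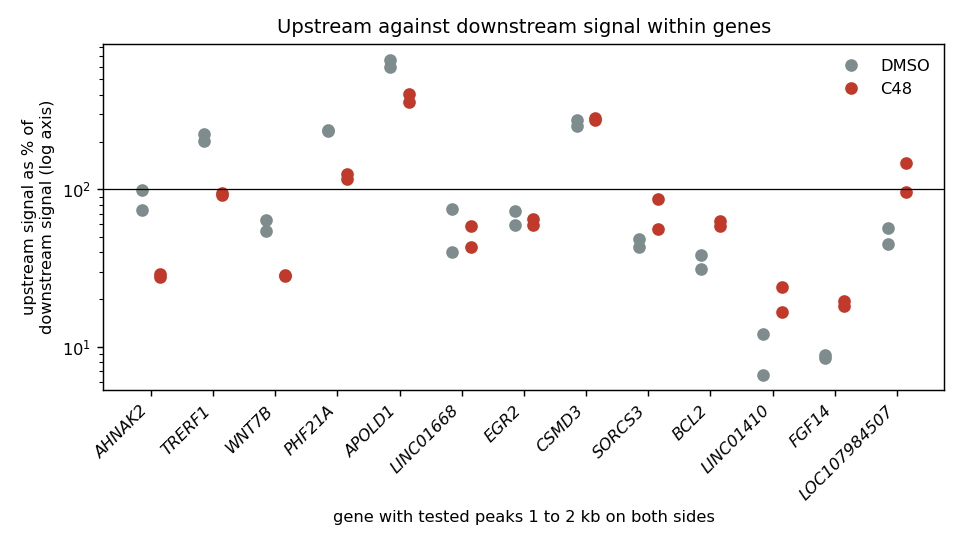
Upstream H3K4me3 signal as a percentage of the downstream signal of the same gene in each library (y axis, log axis; the line marks 100%) for the 13 genes with tested peaks 1 to 2 kb on both sides (x axis, ordered by the change). TRERF1 goes from 202% and 224% in DMSO to 92.8% and 95.4% in C48, and FGF14 from 8.46% and 8.81% to 19.4% and 18.1%; at both genes the sides were measured from different starts.

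The fourth comparison gave each library a single value, the share of all peak signal that lay in the 378 called upstream peaks. It was 0.770% and 0.783% in DMSO and 0.922% and 0.914% in C48, a ratio of 1.18 between the group means. Both C48 libraries lay above both DMSO libraries, and the exact permutation test (two-sided) gave p = 0.333, the smallest that 2 against 2 libraries allow. Without the MIR12136 peak the shares were 0.701% and 0.710% in DMSO and 0.901% and 0.898% in C48 (ratio 1.27). Relative to the core peaks of the same genes, the upstream peaks with a core held 64.6% and 64.9% in DMSO and 76.9% and 77.0% in C48. Downstream peaks went from 2.88% and 2.89% of the peak signal to 3.89% and 3.90% (ratio 1.35), and core peaks from 74.3% and 74.3% to 67.8% and 68.1%. Upstream signal was 26.7% and 27.1% of downstream signal in DMSO and 23.7% and 23.4% in C48, and without the MIR12136 peak it was 24.3% and 24.6% against 23.1% and 23.0%.

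Few genes of the 17 lists fixed for the tissue and the treatment had an upstream peak. None of the 19 single genes looked up, among them the interferon-stimulated genes ISG15, IFIT1 and IFI44L, the DNA sensor CGAS, the KDM5 genes KDM5A, KDM5B and KDM5C, ESR1, GATA3 and MYC, had one that was called in these libraries. No tested upstream peak belonged to the lists of the study's interferon and antigen presentation signatures, further interferon-stimulated genes, nucleic acid sensors or H3K4 methylation machinery. The same held for the lists of basal and mesenchymal, blood and immune, DNA damage and R-loop, housekeeping and ribosomal protein genes.

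The other 7 lists held 1 to 8 tested upstream peaks each. A list need not hold every gene of its class, so the counts cover listed genes only. Of the 4 near listed developmental transcription factors 2 rose and none fell with TMM scaling, beside 45.5% and 29.8% of all tested upstream peaks. Both that rose, near EMX1 and SOX2, had been called in 1 C48 library only and so had entered through C48. The homeobox gene EMX1 (chromosome 2, 72915940 to 72916772, with a GENCODE start of the gene inside) had 590 and 586 scaled tags per 10 M in DMSO and 669 and 646 in C48 (log2 fold change 0.16, SE 0.05), while its core fell (-0.54), so that the ratio rose (0.70, SE 0.10, limma adjusted p = 0.00619). The peak of the pluripotency factor SOX2 (chromosome 3, 181710724 to 181710968) had 89.3 and 92.9 in DMSO and 111 and 108 in C48 (0.26, SE 0.09), a call lost without DMSO replicate 1 (0.23), C48 replicate 1 (0.23) or C48 replicate 2 (0.25). With DESeq2 factors neither passed (0.03 and 0.13). DLX3 had 88.2 and 79.8 in DMSO and 89.8 and 95.2 in C48 (adjusted p = 0.205, limma), and PAX9 did not pass either (0.15, adjusted p = 0.224, limma).

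Of the 2 upstream peaks near listed immediate early genes, that of FOS (chromosome 14, 75277146 to 75277794) had 224 and 240 in DMSO and 204 and 207 in C48 (-0.18, SE 0.07). It was called lower with TMM and DESeq2 factors. It was not called so with edgeR (-0.07) or without DMSO replicate 2 (-0.12) or C48 replicate 1 (-0.18). Under the other 3 scalings it was higher (0.22 to 0.66). EGR2 (chromosome 10, 62817135 to 62817599) overlapped between groups, with 333 and 277 against 268 and 294, but its core lost so much that the ratio rose (0.94, SE 0.16, limma adjusted p = 0.00866). The BCL2 peak was the only tested one near a listed luminal or oestrogen-response gene. It had been called in C48 libraries only and so had entered through C48. Its level did not differ past the threshold (0.09, adjusted p = 0.358, limma), and the peak rose relative to its core (0.75, SE 0.17).

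CCND2, which encodes a D-type cyclin, had the only tested peak near a listed cell cycle gene (chromosome 12, 4272485 to 4272729). This peak rose from a mean of 3.79 scaled tags per 10 M in DMSO to one of 18.4 in C48 (log2 fold change 2.03, SE 0.28). The groups did not overlap. It had been called in 1 C48 library only and so had entered through C48. Near PDGFRA, the platelet-derived growth factor receptor gene on the list of stromal markers (chromosome 4, 54227784 to 54228294), the peak rose from 55.0 and 64.6 to 102 and 84.8 (0.63, SE 0.11). The single tested peak of a zinc finger gene named ZNF, at ZNF500, stood at 143 and 141 in DMSO and 141 and 140 in C48 (-0.01, SE 0.08).

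Solute carrier genes gave 8 tested upstream peaks, of which 4 rose, 2 fell and 2 did not pass, shares near those of all tested upstream peaks (45.5% higher and 29.8% lower). SLC17A7, the vesicular glutamate transporter gene (chromosome 19, 49442605 to 49443740), fell from 1032 and 1023 to 582 and 611 (log2 fold change -0.78, SE 0.04, but 0.06 relative to ribosomal protein promoters). SLC22A31 (chromosome 16, 89201408 to 89202744) fell from 442 and 427 to 278 and 270 (-0.66, SE 0.06, but 0.18 relative to ribosomal protein promoters). SLC30A3, a zinc transporter gene of synaptic vesicles (chromosome 2, 27264216 to 27264748), rose from 179 and 187 to 289 and 298 (0.68, SE 0.07). The other 3 that rose, near SLC39A12, SLC6A4 and SLC26A5, had means of 55.3, 15.4 and 24.3 and log2 fold changes of 0.76, 1.22 and 0.88.

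At 6 genes 2 upstream peaks had been called. Both rose at MIR4477B, whose peaks lie 22600 kb apart at near-identical copies and whose values are less certain for that, with log2 fold changes of 0.26 at -1966 and 1.33 at -1018, and at FGF14 with 1.03 and 1.17. At CSMD3 the stronger peak rose from a mean of 514 to 833 scaled tags per 10 M (0.69) and the weaker one did not pass the test (0.09), and at NR2E1 1 of 2 passed (1.05 against 0.47). Of the 2 peaks at BMS1P22 the one tested rose (0.95), and neither peak at NKX1-1 reached the mean needed for the test.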

How the data were processed

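H3K4me3 CUT&Tag was analysed in 4 HCC1428 libraries. As deposited, each value is a signal: HOMER tags in a merged peak, scaled by the authors to 10000000 aligned tags. The submitters' processing notes name Bowtie2 2.3.4.1 as the aligner and hg38 as the build. Peaks had been called in each library and then merged with those of other cell lines. Which version of HOMER was run is not stated in these sources. Fly spike-in counts and the deposited table of repeat families were not used here, nor was the merged peak score.

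Within 0.1 tags, at least 99.997% of values in each library were whole tags divided by a constant, so tag numbers were recovered. Libraries were scaled by TMM, log2 of the scaled value plus 1 was tested with limma (version 3.58.1, trend), and p-values were adjusted (Benjamini-Hochberg) over all 33772 peaks called in at least 1 library with a mean of at least 5. Ratios to the peak of the same gene nearest the TSS, and of upstream to downstream signal, were tested likewise over all pairs or genes; the 13 genes were adjusted over themselves. Shares were compared by an exact permutation test. edgeR's quasi-likelihood test on those tags (4.0.16; 12886 peaks higher and 12026 lower of 34154, upstream 155 and 73 of 312) and the DESeq2 (1.42.0) size factors served as alternatives, as did other scalings, constants, filters and left-out libraries. Named peaks were the 6 largest rises and falls with a mean of at least 20, the 6 largest rises and 4 largest falls of the ratio with a core mean of at least 50 and an upstream mean of at least 10, the 4 strongest, and up to 3 per gene list. The rises and falls of level and ratio were taken among those that passed the test and whose libraries did not overlap between groups. LIN28B-AS1, TRERF1 and the other peaks at the distance limits, those of the 13 genes and those of genes with 2 peaks were named by position. The peaks, lists and tests were chosen with earlier results of these data known. Sequences and annotation came from hg38 and GENCODE. The scripts were tested on simulated data. Same-numbered libraries did not deviate together (correlation -0.03), so the numbers were not taken as pairs. Some sequences and a marker gene are not reported here.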

Additional observations from a re-analysis of the deposited data

Results flagged for a closer look

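Upstream peaks that had been called in none of the 4 libraries, and so entered no comparison of called peaks, nevertheless held signal. Of 705 such peaks 282 had a mean of at least 5 scaled tags per 10 M, and in the fit of all merged peaks 159 of them were higher in C48 and 47 lower (limma, adjusted p under 0.05), with a median log2 fold change of 0.51. Over all 43317 merged peaks in that fit 36.1% were higher and 34.6% lower. Most of those 43317 peaks had been called in these libraries, so they are not a like background. The share over uncalled peaks alone is not given, and whether the upstream ones stand out from it was not tested. The peaks are set apart here because they come from calls in other cell lines. With 2 libraries a group, no group was large enough to look for a library far from the others.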

How the results depend on the processing

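The number of upstream peaks higher (142) and lower (93) and their median (0.16) moved most with the scaling: 44 were lower with a median of 0.55 per 10 M tags, 218 were higher and 40 lower with 0.62 on the column total, 270 and 11 with 0.97 on ribosomal protein promoters, and the median was 0.03 (0.033) with DESeq2 size factors. It was 0.26 with edgeR. With all merged peaks 305 were higher (median 0.33). In the middle of the band, farther than 250 bases from both limits, 66 were higher and 44 lower of 150. Of alternatives chosen after seeing the data, peaks called in all 4 libraries gave 66 higher and a median of 0.00087, and those without a GENCODE start 60 lower and 0.25. The median of the ratio to the core was 0.34 with cores within 500 bases, with cores at the same start, added later, 56 rose and 26 fell, and with all merged peaks 248 rose, 63 fell and the median was 0.53. For the ratio of sides, the median was -0.40 at a mean of at least 10, and all merged peaks gave 18 rises and 17 falls in 62 genes. The log2 ratio of the share (0.24) was 0.18 over all aligned tags, 0.18 for peaks called in all 4 libraries and 0.35 without MIR12136. The cause of these shifts was not tested.

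Leaving out 1 library at a time gave 114 to 135 higher, 86 to 94 lower and medians of 0.10 to 0.21. For the ratio to the core it gave 48 to 69 rises, 16 to 31 falls and medians of 0.25 to 0.27. For the ratio of sides it gave 1 to 4 rises, 4 to 5 falls and medians of -0.16 to 0.15, positive without DMSO replicate 1 (0.017), DMSO replicate 2 (0.15) and C48 replicate 1 (0.033). The share gave 0.23 to 0.25. With the replicate block 140 upstream peaks were higher and 91 lower, 66 and 31 ratios rose and fell, and 4 and 5 ratios of sides. The pairing was not taken as real.

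Single peaks turned direction as follows. LINC00461, MIR129-2, FOS, EGR2 and ZNF500 went to 0.22, 0.30, 0.22, 0.28 and 0.38 per 10 M tags and to 0.28, 0.37, 0.29, 0.35 and 0.45 on the column total. Relative to ribosomal protein promoters they went to 0.66, 0.74, 0.66, 0.72 and 0.82, EML6 to 0.0029, PSD to 0.36, SLC17A7 to 0.057 and SLC22A31 to 0.18. ANXA9 and BCL2 went to -0.12 and -0.037 with DESeq2 factors and to -0.21 and -0.0087 without C48 replicate 2, and ANXA9 and EGR2 to -0.070 and 0.015 without DMSO replicate 1, while EGR2 was -0.25 without DMSO replicate 2. ZNF500 was 0.042 with all merged peaks and 0.086 with edgeR, and MIR129-2 0.00061 with edgeR. Among the values of named peaks under the alternatives, 729 kept direction and side of the threshold, 28 turned direction, 17 lost the call and 14 gained one.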
